A study of Mus musculus with 12 samples.

Results

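This comparison set 3 rhabdomyosarcoma allografts taken 6 days after doxycycline removal (OFF6) against 3 adult hindlimb muscles (CTL), 6 of the 12 arrays of the series. It asks, gene by gene, what still separated the differentiating tumours from mature muscle. The arrays were chosen by their titles alone, and all 19937 genes with a probe set of 1 symbol were tested. Every mouse that gave donor cells or control muscle carried Myf5Cre, R26-LSL-rtTA and Col1a-Teto-hYAP1 S127A on a C57BL/6 background. In this design Cre, made in cells with a Myf5 history, switches on the rtTA transactivator, which drives human YAP1 with the S127A change when doxycycline is given. YAP1 is the transcriptional co-activator held back by the Hippo pathway, and S127A removes a site at which that pathway restrains it. The tumours grew from interstitial cells of the hindlimb muscle of donors that had received doxycycline for 4 weeks. Grafts of these cells were placed in the gastrocnemius muscle of NOD/SCID mice given doxycycline, an immunodeficient strain that lacks mature B and T cells. The control muscle came from mice of the same genotype that were never induced, so it carried the transgenes but had neither doxycycline nor a transplant, and its host strain was not NOD/SCID. Tumour state, host strain, doxycycline and transplantation therefore cannot be told apart in this comparison. Tumours at day 0 (TUM) and day 3 (OFF3) of removal are quoted only as values beside the members. The labels give neither age nor sex, and do not tell if the replicates of a group are different animals. The p-values therefore reflect spread among these samples, which may be technical.

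Skeletal muscle matures by exchanging isoforms. Newly formed fibres use embryonic and perinatal myosins, cardiac-type actin and troponin T and an acetylcholine receptor with a gamma subunit, and later replace them with fast or slow adult myosins, skeletal actin and the epsilon subunit. Maturation also brings the calcium release machinery, the chloride and potassium channels that set excitability, glycogen and creatine enzymes of the muscle type, and a dense mitochondrial network. Myogenic factors such as Myod1 and Myog start this programme, and resting adult fibres keep only low levels of most of them.

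Values are log2 of the intensity of 1 probe set per gene, and differences are OFF6 minus CTL in log2 units ± standard error, with 3 arrays per group. Of all genes, 64.2% passed at an adjusted p under 0.05, 28.1% higher in OFF6 and 36.1% lower. At least 2-fold higher were 10.7% and at least 2-fold lower 6.5%, and for 55.3% the 95% interval of the difference lay within 1.5-fold either way. Counts below should be read against these shares. The split depended on scaling: as deposited 5602 genes were higher and 7188 lower, against 4486 and 12001 with arrays centred on their median, 4375 and 11991 with arrays scaled to their 75th percentile, and 2209 and 16046 with arrays centred on 7 housekeeping genes. The median of all differences was -0.09 as deposited and -0.28, -0.29 and -0.83 under these scalings. The split also depended on level: among only the genes above the median level, 4683 were higher and 3240 lower. Most of the housekeeping genes were brighter in the tumours (Gusb 2.16 ± 0.08, Ppia 1.36 ± 0.07) and Sdha was dimmer (-1.38 ± 0.07). The 5 probe sets of Ppia ranged from 0.02 to 1.90. The shares for genes at least 2-fold apart, and the directions given below, are as deposited. A list whose majority turned under a scaling is marked, and so are most that came to a near tie. Levels under 5.36, the lower quartile of all genes, are called dim here. OFF6 replicate 2 correlated better across genes with OFF3 (0.995) than with its own group (0.991), and medians without it are given for some lists. Among the others, leaving it out moved the median from 1.35 to 1.10 for natural killer and granzyme genes, from 2.80 to 2.54 for macrophage markers, from 1.59 to 1.40 for antigen presentation, from 1.68 to 1.89 for developmental isoforms and from -0.68 to -0.54 for sarcomere scaffolds. The host muscle around the grafts and the rest of the tissue in each sample were not separated from the tumour cells. The markers of adult muscle were all bright in CTL, with Acta1, Ckm, Myh4, Ttn, Atp2a1 and Pvalb between 12.99 and 13.47 on its arrays. The Y-linked Uty read 7.02, 8.16 and 7.16 in OFF6 and 4.84, 4.56 and 4.71 in CTL, a difference of 2.74 ± 0.23. Eif2s3y (2.46 ± 0.19) and Kdm5d (1.08 ± 0.12), also Y-linked, were higher, while Xist was bright in both groups (10.79, 11.22 and 11.02 in OFF6, 10.70, 10.85 and 10.81 in CTL). The part of the animals' sex in the results below was not tested. In bulk tissue, fewer cells of a type and less RNA per cell cannot be told apart.

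**Figure D1:**
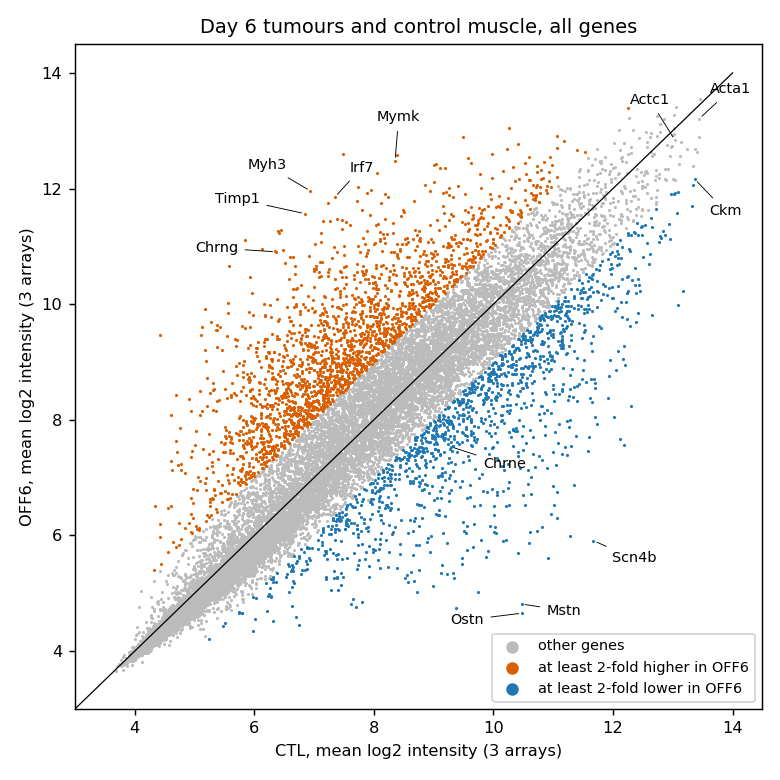
Mean log2 intensity of every gene in CTL (horizontal axis) and OFF6 (vertical axis), 3 arrays each. Orange points are the 2124 genes called at least 2-fold higher in OFF6 and blue points the 1296 called at least 2-fold lower. Myh3 and Chrng lie far above the diagonal, Scn4b and Mstn far below, and Acta1 and Actc1 close to it at the bright end.

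In the day 6 samples, RNA of developmental sarcomere isoforms was far above the level of adult muscle, and that of adult isoforms was moderately lower. How much of the adult signal came from host muscle in the samples was not tested. Myh3, the embryonic myosin heavy chain, read 12.11, 11.65 and 12.11 in the OFF6 arrays and 6.74, 7.04 and 7.03 in the CTL arrays. The groups were wide apart, a 32.5-fold excess in the tumours (5.02 ± 0.12, adjusted p = 5.45e-12). Perinatal Myh8 read 12.16, 11.50 and 12.10 against 8.20, 7.76 and 7.68 (4.04 ± 0.17, adjusted p = 4.34e-10). Tnnt2, the cardiac troponin T used by immature fibres, read 12.76, 12.26 and 12.71 against 8.52, 8.15 and 8.46 (4.20 ± 0.13), and the atrial and embryonic light chain Myl4 13.12, 12.91 and 13.11 against 10.35, 10.21 and 10.21 (2.79 ± 0.07). OFF6 replicate 2 was lowest of its group in all 4 genes, and still far above every CTL array. Of 10 developmental isoforms 7 were higher and 1 lower, with median 1.68 and, for the day 0 tumours, -0.01. With housekeeping centring the counts were 6 and 4 (median 0.94). The exception as deposited was Myh6, a cardiac alpha myosin (-1.13 ± 0.10). Actc1, the cardiac alpha actin that precedes Acta1 in development, read 12.95, 12.59 and 12.98 in OFF6 and 13.03, 13.04 and 13.04 in CTL, a difference of -0.19 ± 0.10 that did not pass (95% interval -0.41 to 0.02). All 3 OFF6 arrays lay just below the CTL arrays, and how far the probe set reads the closely related Acta1 was not tested. The cardiac troponin I Tnni3 (0.01 ± 0.06) was within 1.5-fold.

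**Figure D2:**
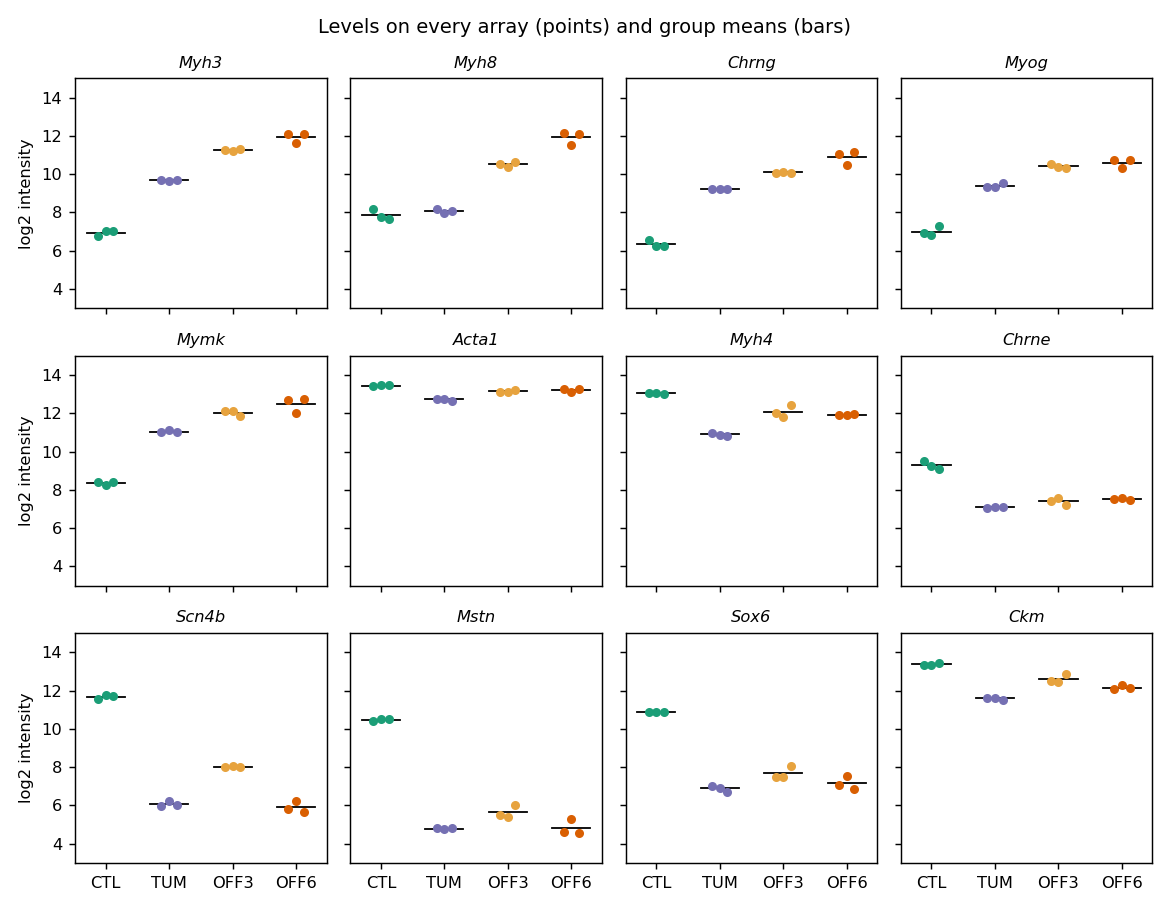
Log2 intensity of 12 named genes on every array, grouped as CTL, TUM, OFF3 and OFF6 along the horizontal axis. Each point is 1 array and each bar the mean of 3. In Myh3, Myh8, Chrng, Myog and Mymk the OFF6 arrays lie above CTL, in Myh4, Chrne, Scn4b, Mstn and Sox6 below it, and Acta1 and Ckm are bright in all groups.

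Adult fast-fibre genes were lower in the day 6 samples without being lost from them. Of 18, 17 were lower in OFF6 and 10 at least 2-fold, with median -1.13 (-2.58 in TUM). Skeletal actin Acta1 read 13.24, 13.10 and 13.28 in OFF6 and 13.40, 13.45 and 13.47 in CTL, only -0.24 ± 0.06 apart though called (adjusted p = 0.00652), and the light chain Myl1 differed by -0.16 ± 0.09 and did not pass. Acta1 lay near the top of the arrays' range, and how far that narrowed its difference was not tested. The fast troponin T Tnnt3 was -0.88 ± 0.07 apart, opposite in sign to Tnnt2. The type 2B myosin Myh4 read 11.93, 11.89 and 11.95 against 13.07, 13.06 and 12.99 (-1.12 ± 0.12, 2.17-fold lower), and the 2A and 2X myosins Myh2 (-0.88 ± 0.12) and Myh1 (-0.51 ± 0.08) were closer to adult. Regulators and late components stood much further off: the light chain kinase Mylk2 (-4.44 ± 0.11), the Z-disc protein Myoz3 (-3.88 ± 0.11), the calcium buffer Pvalb (-3.11 ± 0.40) and fast myosin-binding protein Mybpc2 (-2.94 ± 0.15). Mylk2 in OFF6 (7.47, 7.84 and 7.70) was 21.7-fold below CTL (mean 12.11), and in TUM it read 7.39, 7.53 and 7.39.

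Slow-fibre genes split. Among 12, 5 were higher and 4 lower (median 0.20), a balance that turned to 4 and 5 with arrays scaled to their 75th percentile and to 3 and 7 with housekeeping centring. Troponins used in both immature and slow fibres, Tnnc1 (1.26 ± 0.10), Tnni1 (1.14 ± 0.11) and Tnnt1 (0.68 ± 0.13), were above adult muscle, Tnnt1 not with housekeeping centring (-0.06). The slow light chains Myl3 (-3.67 ± 0.15) and Myl2 (-2.85 ± 0.28) and the slow myosin Myh7 (-1.53 ± 0.18) were below it. The slow calcium pump Atp2a2 (0.17 ± 0.11) did not pass, with its 95% interval within 1.5-fold, though it did without OFF6 replicate 2 (0.34). Tpm3, tropomyosin 3, differed by 1.29 ± 0.07, but its 4 probe sets ranged from -1.34 to 1.29 with calls both ways. The list's median was 0.37 without OFF6 replicate 2, 0.13 without replicate 1 and 0.09 without replicate 3.

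Of 31 sarcomere scaffold and assembly genes 23 were lower and 2 higher, with median -0.68 (-2.47 in TUM). The intermediate filament protein Synm (-3.66 ± 0.15), the costameric Cmya5 (-2.70 ± 0.13), the M-band protein Myom1 (-2.38 ± 0.13) and the atrophy ubiquitin ligases Fbxo32 (-2.31 ± 0.10) and Trim63 (-2.18 ± 0.11) were lowest. The giant scaffolds titin Ttn (-0.68 ± 0.15) and nebulin Neb (-0.55 ± 0.12) were both called lower, by amounts close to the list's median. Ttn was bright in CTL, and how far the top of the arrays' range narrowed its difference was not tested. Desmin Des (-0.09 ± 0.09), filamin Flnc (-0.04 ± 0.10) and the thin filament nucleators Lmod2 (-0.09 ± 0.15) and Lmod3 (0.09 ± 0.16) did not pass, all with 95% intervals within 1.5-fold. Without OFF6 replicate 2 Lmod3 was called higher (0.32). Obsl1 (0.76 ± 0.13), an obscurin-like cytoskeletal linker, and the M-band protein Myom3 (0.63 ± 0.15) were higher, but neither with housekeeping centring (0.02 and -0.11). For 14 measured dystrophin complex and sarcolemma genes the counts were 7 lower and 4 higher (median -0.24, -0.10 without OFF6 replicate 2). Dystrophin Dmd (-2.40 ± 0.17) and its partner neuronal nitric oxide synthase Nos1 (-4.01 ± 0.09) were far below adult muscle. The laminin receptor Itga7 (2.19 ± 0.14) and Sntb1 (2.27 ± 0.14), a syntrophin, were above it, and dystroglycan Dag1 (0.08 ± 0.09) was within 1.5-fold, though called higher without OFF6 replicate 2 (0.21).

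The membrane systems that make adult fibres excitable were the muscle group furthest below control. Of 16 channel and pump genes measured, 14 were at least 2-fold lower, against 6.5% of all genes, with median -2.75 (-3.29 in TUM). Scn4b, a beta subunit of voltage-gated sodium channels, read 5.82, 6.22 and 5.68 in OFF6 and 11.55, 11.76 and 11.72 in CTL, 54.4-fold lower (-5.77 ± 0.12, adjusted p = 1.98e-12), and 5.99, 6.22 and 6.01 in TUM. The OFF6 and TUM arrays overlapped and neither came near CTL. The chloride channel Clcn1, which sets resting conductance, read 6.58, 6.63 and 6.37 against 10.26, 10.31 and 10.20 (-3.74 ± 0.14). The potassium channel Kcna7 (-3.95 ± 0.13), the water channel Aqp4 (-3.70 ± 0.11), the inward rectifier Kcnj2 (-3.05 ± 0.14) and the sodium-calcium exchanger Slc8a3 (-3.43 ± 0.10) were also low. Aqp4 was dim on all 3 OFF6 arrays. Kcnn3, a small-conductance calcium-activated potassium channel, was higher (1.75 ± 0.16), and Atp1b4 (0.05 ± 0.16), a relative of the sodium pump's beta subunits, was within 1.5-fold, though called higher without OFF6 replicate 2 (0.29). Among 24 excitation-contraction coupling genes 17 were lower and 3 higher, with the smaller median of -0.72 (-2.09 in TUM). The histidine-rich calcium protein Hrc (-2.0 ± 0.10), the junctophilins Jph2 (-1.92 ± 0.15) and Jph1 (-1.66 ± 0.15), which tie the surface to the calcium store, the store protein Sypl2 (-1.88 ± 0.13) and the release channel Ryr1 (-1.70 ± 0.13) were low, and Asph (-0.10 ± 0.06) was within 1.5-fold. The fast calcium pump Atp2a1 differed by -0.78 ± 0.07 and the voltage sensor Cacna1s by -1.14 ± 0.16. The calsequestrins, which hold calcium in the store, differed in sign. Casq1, the fast calsequestrin, was lower (-0.73 ± 0.11), and Casq2, the cardiac and slow one, higher (1.81 ± 0.15).

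Among acetylcholine receptor genes the fetal subunit was higher and the adult subunit lower. Chrng, the gamma subunit of immature muscle, read 11.06, 10.47 and 11.18 in OFF6 and 6.58, 6.26 and 6.25 in CTL, 23.3-fold higher (4.54 ± 0.15, adjusted p = 5.17e-11). Chrne, the epsilon subunit that replaces it, read 7.55, 7.59 and 7.47 against 9.51, 9.27 and 9.08, 3.36-fold lower (-1.75 ± 0.11, adjusted p = 2.00e-08). The groups did not overlap in either gene, and the 2 differences had opposite signs. The delta subunit Chrnd (3.52 ± 0.18), the alpha subunit Chrna1 (2.63 ± 0.10) and the beta subunit Chrnb1 (1.69 ± 0.10), which both receptor types share, were higher, as were the adhesion molecule Ncam1 (3.17 ± 0.11), the receptor Erbb3 (2.49 ± 0.20) and the dystrophin relative Utrn (1.43 ± 0.08). Of 18 genes of the receptor and junction 14 were higher and 2 lower, with median 1.19 (0.70 in TUM). Acetylcholinesterase Ache (-1.13 ± 0.11) was the other lower member, and the clustering factors Dok7 (-0.00 ± 0.18) and Rapsn (0.31 ± 0.16) did not pass, though Rapsn did without OFF6 replicate 2 (0.46).

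The promoters of 3 subunits are shown because their genes moved in opposite directions while carrying the same letters. Sequences are from RefSeq (GRCm38.p6), written 5′ to 3′ on the gene's strand, with capitals marking CAGCTG, an E-box of the kind bound by myogenic factors. This motif reads the same on both strands. Chrng, chr1:87205561-87205810 on the + strand, and Chrna1, chr2:73580339-73580588 on the - strand, are given from 250 bases to 1 base before the start. Chrne, chr11:70619245-70619444 on the - strand, is given from 250 to 51 bases before it.
Chrng: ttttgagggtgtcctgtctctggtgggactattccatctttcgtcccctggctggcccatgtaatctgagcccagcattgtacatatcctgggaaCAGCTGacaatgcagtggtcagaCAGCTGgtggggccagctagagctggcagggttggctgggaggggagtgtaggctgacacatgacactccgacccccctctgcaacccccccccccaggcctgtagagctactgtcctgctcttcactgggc
Chrna1: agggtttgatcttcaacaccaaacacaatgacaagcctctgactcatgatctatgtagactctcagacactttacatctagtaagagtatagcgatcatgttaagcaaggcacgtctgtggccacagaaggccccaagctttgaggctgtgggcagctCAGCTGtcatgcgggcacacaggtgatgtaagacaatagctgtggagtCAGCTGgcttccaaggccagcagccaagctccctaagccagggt
Chrne: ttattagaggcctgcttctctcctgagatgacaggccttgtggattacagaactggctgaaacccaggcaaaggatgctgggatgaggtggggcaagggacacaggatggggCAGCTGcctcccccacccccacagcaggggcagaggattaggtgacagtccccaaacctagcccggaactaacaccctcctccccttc
The first base of the motif lay 155 and 132 bases before the start in Chrng, 92 and 44 in Chrna1 and 138 in Chrne. Of the 11 measured junction genes with a promoter in the table, 6 held it within 250 bases before a start, as did 14.7% of all 27025 genes with a promoter and 4 of the 12 interferon genes. The motif was present in Chrne, which was lower, as well as in Chrng and Chrna1, which were higher. Chrnd and Chrnb1, also higher, were not among the 6 genes found to hold it, and not every junction gene had a promoter in the table.

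Factors that start differentiation were high in the tumours, and those tied to adult fibres were low. Myog, the factor of terminal differentiation, read 10.74, 10.31 and 10.76 in OFF6 and 6.90, 6.80 and 7.28 in CTL (3.61 ± 0.14, 12.2-fold, adjusted p = 1.81e-10). Mymk, the myoblast fusion protein myomaker, read 12.67, 12.03 and 12.72 against 8.43, 8.24 and 8.39 (4.12 ± 0.15). Myf5, an early factor, read 8.67, 8.50 and 8.77 against 5.99, 6.08 and 6.18 (2.56 ± 0.08), and Myod1 11.65, 10.79 and 11.65 against 9.69, 9.75 and 9.62 (1.67 ± 0.17). All 4 lay wholly above control. Myf6, the factor most kept in adult fibres, was lower (-0.83 ± 0.11), as were Pax7 (-0.69 ± 0.08), the satellite cell factor, and Eya1 (-1.84 ± 0.07), a transcriptional co-activator and phosphatase. Eya4 (-0.06 ± 0.06) was within 1.5-fold. Over 16 myogenic and MEF2 factors, 7 were higher and 7 lower, with a median of -0.19 (-0.05 without OFF6 replicate 2). With median centring 6 were higher and 9 lower, and with housekeeping centring 4 and 11. Of 18 factors linked to fibre type or the fetal-to-adult switch 13 were lower and 2 higher (median -0.65). Sox6, a repressor of slow-fibre genes, read 7.05, 7.55 and 6.88 in OFF6 against 10.88, 10.91 and 10.90 in CTL (-3.74 ± 0.17, 13.3-fold lower). The cofactor Vgll2 (-1.96 ± 0.08), the deacetylase Hdac9 (-1.41 ± 0.08), the nuclear receptor Ppard (-1.06 ± 0.10) and the fetal-stage factor Nfix (-0.52 ± 0.06) were lower too. Eya3 (0.51 ± 0.07) was higher, though not with housekeeping centring (-0.22), and Six5 (0.04 ± 0.09) was within 1.5-fold.

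Satellite cell and myoblast genes leaned upward, with 16 of 27 higher and 3 lower (median 0.43), a lean that turned to 9 higher and 15 lower with housekeeping centring. The adhesion receptor Vcam1 (3.36 ± 0.11), the differentiation inhibitor Id2 (2.54 ± 0.09), the proteoglycan Sdc3 (2.23 ± 0.10) and M-cadherin Cdh15 (1.97 ± 0.12) were highest, and the calcitonin receptor Calcr (-0.94 ± 0.09), a mark of quiescent satellite cells, was lower. Calcr was dim on all 3 OFF6 arrays, and Sdc4 (-0.02 ± 0.08) was within 1.5-fold. Of 23 adhesion and fusion genes 14 were higher and 3 lower (median 0.87), a majority that became a tie of 10 and 10 with housekeeping centring. N-cadherin Cdh2 (3.39 ± 0.16), the membrane repair protein Myof (2.84 ± 0.10) and the guanine exchange proteins Dock5 (2.72 ± 0.18) and Elmo1 (1.78 ± 0.14) led these. The scavenger receptor Stab2 was lower (-0.87 ± 0.09), and the integrin Itga3 (0.01 ± 0.14) was within 1.5-fold.

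Mstn, myostatin, the secreted brake on muscle growth, read 4.60, 5.27 and 4.57 in OFF6 and 10.40, 10.52 and 10.49 in CTL (-5.66 ± 0.18, adjusted p = 4.37e-11). All 3 OFF6 arrays were dim, so no fold is given. In TUM it read 4.84, 4.75 and 4.80, also dim, and in OFF3 5.49, 5.40 and 6.03, just above the dim range or higher. Its type II receptor Acvr2b (-1.74 ± 0.11) and the type I receptor Acvr1b (-1.46 ± 0.08) were lower, while its binding antagonists Fst (1.86 ± 0.15) and Fstl3 (2.36 ± 0.14) and the activin subunit Inhba (1.39 ± 0.17) were higher. In the list of 18 growth regulators 10 were higher and 5 lower, turning to 4 and 10 with housekeeping centring, and the inhibitory Smad7 (-0.11 ± 0.06) was within 1.5-fold.

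The energy supply of the muscle type was lower throughout. All 27 measured muscle-type energy enzymes were lower in OFF6, 24 of them at least 2-fold (median -1.98, -2.80 in TUM). The phosphorylase kinase subunit Phkg1 (-4.49 ± 0.20), the glycogen targeting subunit Ppp1r3c (-4.13 ± 0.18), the insulin-responsive glucose transporter Slc2a4 (-3.96 ± 0.12) and the gluconeogenic Fbp2 (-3.87 ± 0.09) were lowest. Slc2a4 ran from 7.89 to 8.27 in OFF6 and from 11.99 to 12.03 in CTL, with no overlap. Creatine kinase Ckm read 12.08, 12.27 and 12.14 against 13.33, 13.33 and 13.43 (-1.20 ± 0.10), and the glycolytic Eno3 (-0.40 ± 0.07) and Aldoa (-0.54 ± 0.07) were closest to adult. The listed isoforms of other tissues, some of them shared with muscle, mostly went the other way, with 17 of 26 higher and 7 lower (median 0.53). Housekeeping centring turned these counts to 8 and 13. Brain creatine kinase Ckb was higher (1.82 ± 0.09) where Ckm was lower. The same opposition held between the liver-type AMP deaminase Ampd2 (1.70 ± 0.09) and muscle Ampd1 (-2.85 ± 0.16). It held between Pgam1 (1.44 ± 0.07) and Pgam2 (-1.0 ± 0.14), and between Cox6a1 (1.31 ± 0.08) and Cox6a2 (-1.16 ± 0.13). The transporter pair was unequal, since Slc2a1 was higher by only 0.33 ± 0.11, with overlapping arrays, a call lost when any of 5 arrays was left out and turned by housekeeping centring (-0.41). Brain-type Aldoc (-0.00 ± 0.11) was within 1.5-fold. Enzymes of lower glycolysis that muscle shares with other tissues, Pkm (-1.08 ± 0.10), Pgk1 (-0.95 ± 0.07) and Ldha (-0.69 ± 0.07), were lower.

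**Figure D3:**
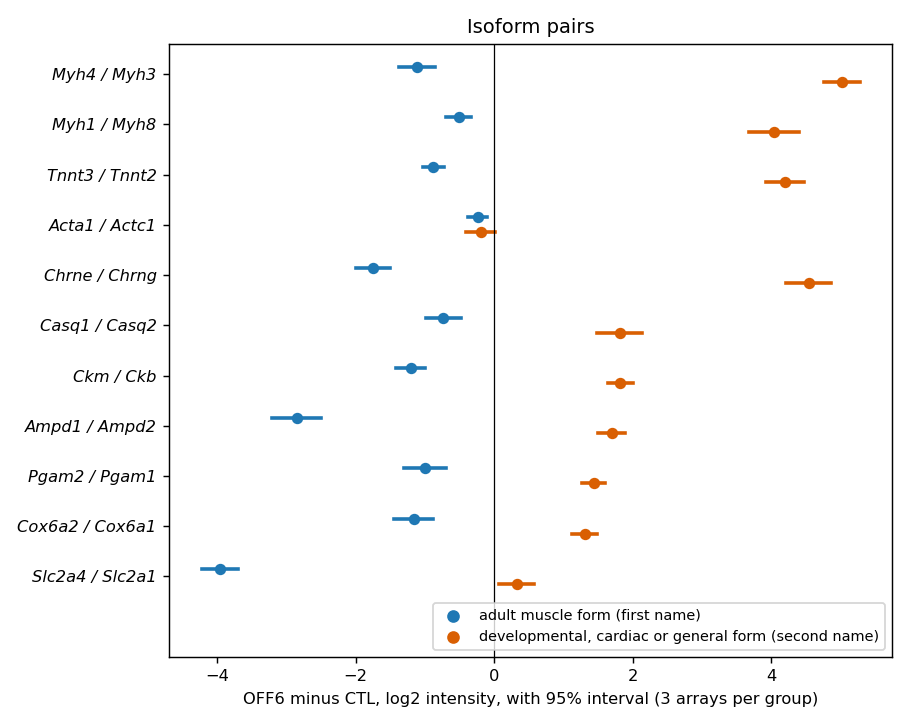
Difference OFF6 minus CTL in log2 units (horizontal axis) with its 95% interval for pairs of isoforms, the adult muscle form in blue and the developmental, cardiac or general form in orange, from 3 arrays per group. In 10 of 11 pairs the blue interval lies left of 0 and the orange one right of it, and in the actin pair both lie near 0. The pairs were chosen with their values known, and Aldoa (-0.54) with Aldoc (-0.00), not drawn, is a pair whose general form was not higher.

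Mitochondrial genes were lower almost throughout. Of 41 respiratory chain and ATP synthase genes 40 were lower, 14 at least 2-fold, with the modest median of -0.85 (-1.12 in TUM). The complex III iron-sulphur protein Uqcrfs1 (-1.68 ± 0.07), the succinate dehydrogenase subunit Sdhb (-1.54 ± 0.06) and the complex I subunits Ndufb10 (-1.54 ± 0.07) and Ndufa5 (-1.39 ± 0.06) were lowest, and the ATP synthase subunit Atp5d (-0.08 ± 0.07) did not pass. Of 25 genes of the citrate cycle and pyruvate oxidation 24 were lower (median -1.20), among them the pyruvate carrier Mpc1 (-1.69 ± 0.07) and Idh3a (-1.71 ± 0.09). The kinases that inhibit pyruvate dehydrogenase divided. Pdk2 (-2.05 ± 0.08), Pdk1 (-1.76 ± 0.09) and Pdk4 (-1.29 ± 0.08) were lower, and Pdk3 read 9.84, 9.30 and 9.78 in OFF6 against 6.40, 6.77 and 6.76 in CTL, 7.98-fold higher (3.00 ± 0.16). Of 26 fatty acid genes 24 were lower (median -1.29), led by the carboxylase Acacb (-3.54 ± 0.09), the lipase Lpl (-3.34 ± 0.14) and the uncoupler Ucp3 (-3.28 ± 0.08), while Cpt1a, the liver-type carnitine transferase, was higher (1.20 ± 0.15). Acacb, Lpl and the fatty acid carrier Cd36 (-2.33 ± 0.09) are also made by adipocytes or endothelium, whose markers were lower as described further on, and their part here was not tested. Among 20 regulators 18 were lower (median -1.40). The coactivator Ppargc1a, a driver of mitochondrial genes, read 7.21, 7.51 and 7.21 against 10.70, 10.90 and 10.82 (-3.50 ± 0.15, 11.3-fold). The receptors Rxrg (-3.44 ± 0.16), Nr4a1 (-3.14 ± 0.12) and Ppara (-3.00 ± 0.06) were lower as well, and Nrf1 (0.20 ± 0.07) and Gabpa (-0.09 ± 0.08), which also act on nuclear genes for mitochondrial proteins, were within 1.5-fold. Nrf1 was called higher, but not when any of 4 arrays was left out, and it turned to -0.54 with housekeeping centring.

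Genes of amino acid and one-carbon supply were mostly higher. Of 16 measured genes of serine, glycine, one-carbon and amino acid supply 13 were higher, 11 at least 2-fold, and 2 lower, with median 1.64 (2.14 in TUM). Asparagine synthetase Asns read 11.20, 10.56 and 11.24 in OFF6 and 7.27, 7.56 and 7.67 in CTL (3.50 ± 0.17, 11.3-fold). The amino acid transporter Slc7a5 (3.33 ± 0.17), the serine pathway enzyme Psat1 (2.96 ± 0.13) and the proline pathway enzyme Aldh18a1 (2.41 ± 0.13) followed. The cytosolic Shmt1 (-1.24 ± 0.11) and Mthfd1 (-0.99 ± 0.11) were lower while the mitochondrial Shmt2 (1.01 ± 0.16) and Mthfd2 (2.29 ± 0.15) were higher. Psph (-0.12 ± 0.08), the last enzyme of serine synthesis, was within 1.5-fold.

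Cell division genes were above those of resting muscle although their median lay below that of the day 0 tumours. Mki67, a proliferation marker, read 8.54, 8.08 and 8.51 in OFF6, 6.42, 6.43 and 6.53 in CTL and 10.17, 10.11 and 10.21 in TUM, with OFF6 between the other groups (1.92 ± 0.12 against CTL). Of 27 mitosis genes 25 were higher than in CTL and 1 lower, with median 1.42 against 3.44 in TUM. Anln (2.72 ± 0.15), a cytokinesis protein, cyclin Ccna2 (2.61 ± 0.21), the topoisomerase Top2a (2.56 ± 0.22) and the mitotic kinase Cdk1 (2.21 ± 0.18) led. The 2 probe sets of Top2a were unlike, with differences of 0.02 and 2.56. Aurka (-0.50 ± 0.11), a mitotic kinase, was lower, and the kinetochore protein Ndc80 (0.16 ± 0.12) was within 1.5-fold. Of 27 replication and repair genes 23 were higher and 1 lower (median 0.70, 2.25 in TUM; 9 and 8 with median -0.03 under housekeeping centring), led by the atypical E2F factor E2f8 (3.07 ± 0.16), the helicase subunits Mcm6 (2.34 ± 0.11) and Mcm4 (1.38 ± 0.10) and the nucleotide reductase subunit Rrm2 (2.07 ± 0.18). Its partner Rrm1 was lower (-0.53 ± 0.10), and Gins1 (0.03 ± 0.12) was within 1.5-fold. G1 regulators were mostly higher, with 11 of 17 above CTL (median 1.16). Cdk6, a G1 kinase, read 10.71, 10.55 and 10.69 in OFF6 against 6.79, 7.16 and 7.12 in CTL (3.63 ± 0.09), and the inhibitor Cdkn2a (2.31 ± 0.07) and cyclin Ccnd1 (2.19 ± 0.09) were higher too, as was the kinase Cdk2 (2.04 ± 0.10). The inhibitor Cdkn2d (-0.05 ± 0.11) was within 1.5-fold. Rbl2 (-1.01 ± 0.07), the pocket protein of resting cells, was lower and Rbl1 (1.49 ± 0.11), that of cycling cells, higher.

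Myc itself was higher (1.09 ± 0.12), and 14 of 24 Myc and ribosome biogenesis genes were higher and 2 lower (median 0.34), turning to 5 and 15 with housekeeping centring. The nucleolar proteins Nop58 (1.46 ± 0.08), Npm1 (1.20 ± 0.09) and Bop1 (1.14 ± 0.14) led, and Mycn, a relative of Myc, was lower (-0.84 ± 0.10). Of the list, 11 were within 1.5-fold of CTL, among them the processing factor Rrp9 (-0.00 ± 0.11). Of 20 p53 and stress genes 9 were higher and 3 lower (1 without OFF6 replicate 3), turning to 5 and 12 with housekeeping centring, with median 0.24 (0.10 without OFF6 replicate 2). With median centring or 75th percentile scaling the counts were 8 and 7. Mdm2 (2.46 ± 0.12), the p53 ubiquitin ligase, the kinase Plk2 (2.58 ± 0.12) and the death receptor Eda2r (2.20 ± 0.12) were highest, followed by the apoptosis gene Pmaip1 (1.07 ± 0.13). Cyclin Ccng1 (-0.77 ± 0.07) was lower, and Gadd45g (0.04 ± 0.09) was within 1.5-fold.

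At day 6 without doxycycline, YAP target genes were not all at the level of control muscle. Of 22, 14 were higher, 10 at least 2-fold, and 4 lower (median 0.76, 1.40 in TUM). With housekeeping centring the counts were 11 and 10 (median 0.03). Ankrd1, a titin-binding stress protein and YAP target, read 11.50, 10.74 and 11.48 in OFF6, 7.98, 8.04 and 8.26 in CTL and 11.67, 11.60 and 11.67 in TUM (3.14 ± 0.16 against CTL). The matricellular Ccn2 read 11.43, 11.55 and 11.44 against 10.25, 10.24 and 10.25 (1.23 ± 0.07) and its relative Ccn1 10.08, 9.93 and 10.08 against 9.45, 9.55 and 9.66 (0.48 ± 0.07). Both were higher without overlap, Ccn2 2.34-fold and Ccn1 1.39-fold, though Ccn1 turned to -0.26 with housekeeping centring. Myof, Dock5 and the matrix protein Ccdc80 (1.83 ± 0.11) were high, while the junction protein Amotl2 (-0.30 ± 0.08), tissue factor F3 (-0.53 ± 0.19, with overlapping arrays and a call lost without any of 4 of the 6 arrays) and the membrane protein Crim1 (-1.81 ± 0.15) were lower than in CTL. Fjx1 (0.00 ± 0.09) was within 1.5-fold. Several of these genes are also made by fibroblasts, and matrix genes were higher in OFF6 as given below. The part of that in the list was not tested. The mouse Yap1 probe set read 9.68, 9.50 and 9.65 in OFF6 and 9.43, 9.59 and 9.67 in CTL, a difference of 0.05 ± 0.07 with a 95% interval of -0.11 to 0.21. How far it reads the human transgene is unknown. Of 20 other pathway components 12 were higher and 4 lower, turning to 7 and 10 with housekeeping centring. The DNA-binding partner Tead4 (1.67 ± 0.21), the cofactor Vgll3 (1.62 ± 0.07), the scaffold Ajuba (1.58 ± 0.12) and the YAP relative Wwtr1 (1.05 ± 0.07) were higher. Amot (-1.79 ± 0.07), which holds YAP at junctions, was lower. The antagonist Vgll4 (0.03 ± 0.09) was within 1.5-fold.

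Growth genes of fetal tissue went both ways. Of 20, 7 were higher and 5 lower with median 0.01 (from -0.02 to 0.08 with 1 array left out), and the counts were 7 and 9 with median or 75th percentile scaling and 6 and 13 with housekeeping centring. Insulin-like growth factor Igf2 read 12.63, 12.35 and 12.60 in OFF6 and 9.48, 9.61 and 9.63 in CTL (2.95 ± 0.07, 7.75-fold). The imprinted Mest (2.66 ± 0.13) and Peg10 (2.23 ± 0.16) and the chromatin protein Hmga2 (1.80 ± 0.06) were higher, the proteoglycan Gpc3 (-1.70 ± 0.40) and Dlk1 (-0.78 ± 0.16) were lower, and Lin28b (-0.07 ± 0.05) was dim in both groups.

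**Figure D4:**
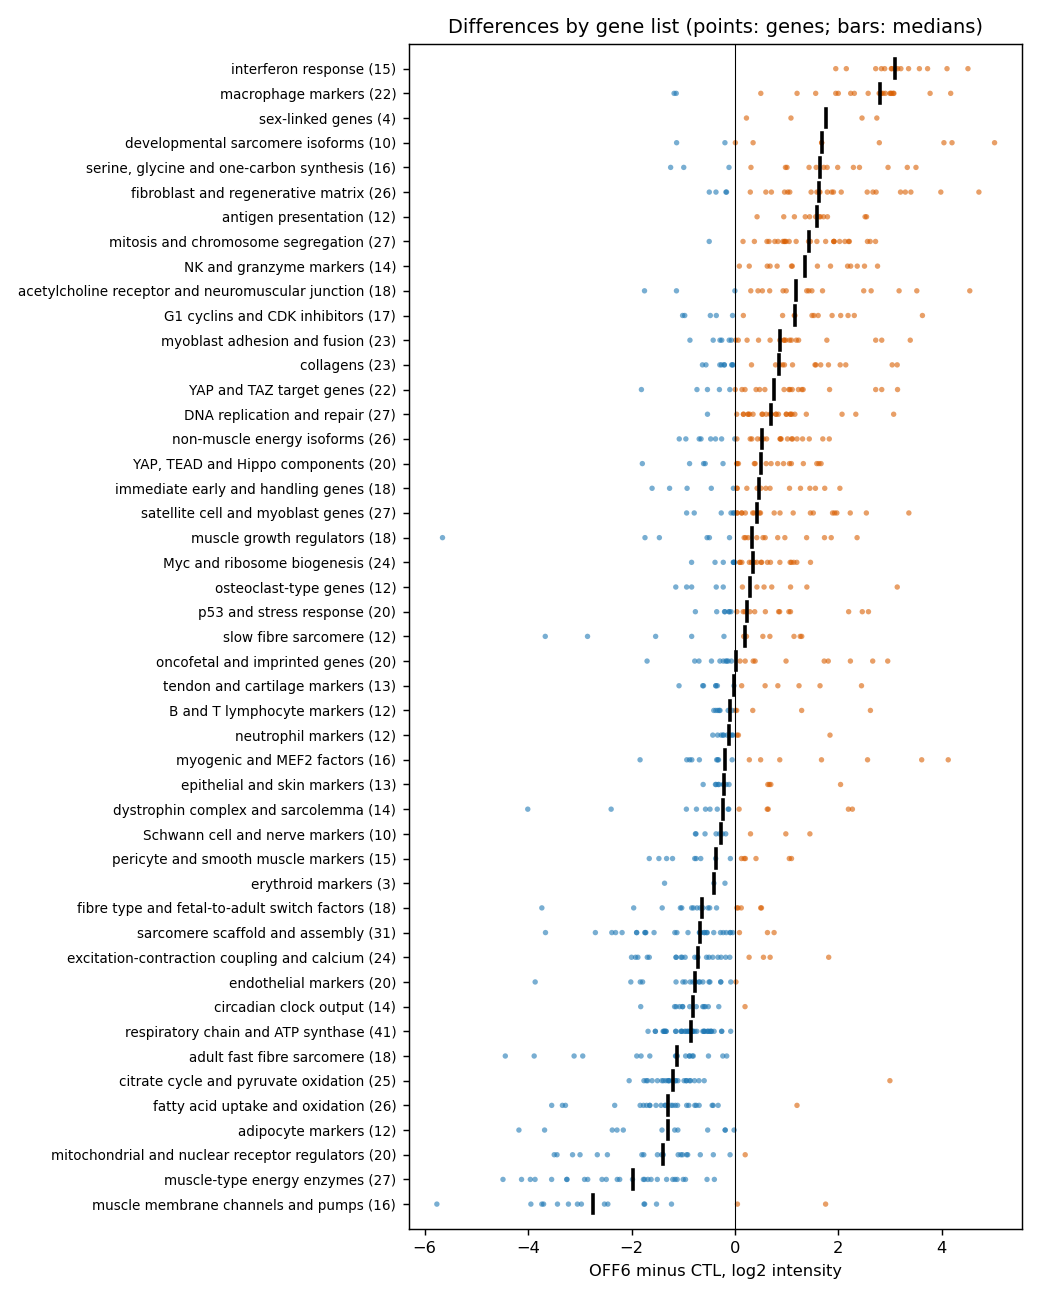
Difference OFF6 minus CTL in log2 units (horizontal axis) for every measured gene of the 47 lists, 1 row per list with its number of genes. Each point is 1 gene and each black bar the median of the list. Interferon and macrophage rows lie furthest right, channel and muscle-type energy rows furthest left.

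Matrix genes were strongly higher. Of 26 fibroblast and regenerative matrix genes 21 were higher, 18 at least 2-fold, and 2 lower, or 4 without OFF6 replicate 2 (median 1.63). Their summed intensity ran from 70580 to 81388 in OFF6 against 27868 to 29735 in CTL. The protease inhibitor Timp1 read 11.61, 11.48 and 11.60 against 6.96, 6.67 and 6.91 (4.72 ± 0.07, 26.3-fold). Tenascin Tnc, a glycoprotein of regenerating tissue, read 11.68, 11.04 and 11.63 against 7.41, 7.68 and 7.32 (3.98 ± 0.15), without overlap. Periostin Postn (3.40 ± 0.10) and the crosslinking enzyme Lox (3.30 ± 0.09) followed. Among genes of resting fibroblasts, Dcn (-0.17 ± 0.15) and Dpt (-0.16 ± 0.21) did not pass, though without OFF6 replicate 2 both did (-0.39 and -0.50). Pdgfra was lower with overlapping arrays (-0.50 ± 0.20), a call lost when any array but OFF6 replicate 2 was left out, while without that array it was -0.82. Of 23 collagens 14 were higher and 4 lower (median 0.86), against 13 and 9 with median centring and 10 and 10 (median 0.13) with housekeeping centring. Col12a1 (3.14 ± 0.09), a fibril-associated collagen, Col8a1 (3.04 ± 0.10), Col5a2 (2.14 ± 0.11) and Col14a1 (2.03 ± 0.12) led. The fibrillar Col1a1 (1.55 ± 0.07) and Col3a1 (1.66 ± 0.09) were higher, vessel-associated Col15a1 (-0.63 ± 0.13) was lower, and basement membrane Col4a2 (-0.04 ± 0.08) was within 1.5-fold.

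Macrophage genes were mostly well above muscle. Of 22 macrophage markers 20 were higher, 19 at least 2-fold (median 2.80), and their summed intensity was 35100 to 47608 in OFF6 against 6743 to 7547 in CTL. Adgre1, a macrophage surface receptor, read 11.20, 11.78 and 11.13 against 7.31, 7.61 and 7.87 (3.77 ± 0.16), and the protease Ctss (4.17 ± 0.10), complement C1qa (3.07 ± 0.12) and the lectin Lgals3 (3.06 ± 0.11) were high. Cd163, a scavenger receptor of resident macrophages, was lower (-1.14 ± 0.19), as was Lyz1 (-1.18 ± 0.22). Its close copy Lyz2 was among the 20 that were higher, and how far the probe sets part these copies was not tested. Intensities of this kind are above 0 for every probe set, so a value alone does not show that a marker was expressed. Natural killer and granzyme genes were higher in 11 of 14, led by Nkg7 (2.76 ± 0.17), a granule protein, and the granzymes Gzmc (2.50 ± 0.23), Gzmb (2.36 ± 0.20) and Gzme (2.24 ± 0.26), proteases with near copies among themselves. Klrb1c, the NK1.1 antigen, did not pass (0.08 ± 0.05). Of 12 B and T cell markers 5 were lower, 3 higher and 9 within 1.5-fold, with 3 lower without CTL replicate 1 or OFF6 replicate 3. With quantile normalization 3 were higher and 3 lower. The T cell receptor components Cd3e (-0.41 ± 0.09) and Cd3d (-0.37 ± 0.09) and the B cell gene Cd79a (-0.29 ± 0.11) were called lower. Cd3d and Cd79a were dim in both groups. The Cd79a arrays overlapped, and its call was lost with the block, with only the 6 arrays, with quantile normalization, with 32 added, and without CTL replicate 1 or OFF6 replicate 3. Ms4a1 (-0.13 ± 0.06) did not pass, and Cd8b1 (0.01 ± 0.07) was within 1.5-fold. Cd79b (1.29 ± 0.24) and Cd4 (2.62 ± 0.22), which myeloid cells can also make, were higher. Among 12 neutrophil markers the colony-stimulating factor receptor Csf3r was higher (1.84 ± 0.17), and 5 were lower by small amounts (2 higher and 2 lower with quantile normalization), including Elane (-0.43 ± 0.08), Camp (-0.34 ± 0.09) and Retnlg (-0.27 ± 0.08). Mmp8 (-0.04 ± 0.06) was dim in both groups. Of 12 osteoclast-type genes 6 were higher and 4 lower, turning to 2 and 7 with housekeeping centring. Their median was 0.28 (0.18 without OFF6 replicate 2) against 2.04 in TUM, and the acid phosphatase Acp5 (3.14 ± 0.13), the receptor Tnfrsf11a (1.39 ± 0.14) and the protease Ctsk (1.08 ± 0.19) were higher. Carbonic anhydrase Car2 was lower (-1.14 ± 0.14) and Itgb3 (0.14 ± 0.12) within 1.5-fold. Antigen presentation genes were higher in all 12 measured, such as the immunoproteasome subunit Psmb8 (2.54 ± 0.12), the peptide transporter Tap1 (2.52 ± 0.08), the class II chain H2-Eb1 (1.71 ± 0.13) and the class II invariant chain Cd74 (1.79 ± 0.10).

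The interferon list was the furthest above control of the 47, with all 15 measured genes at least 2-fold higher (median 3.09, 2.86 in TUM and 2.95 in OFF3). The regulator Irf7 read 11.77, 11.95 and 11.84 in OFF6 and 7.05, 7.36 and 7.63 in CTL, 22.7-fold higher (4.51 ± 0.13, adjusted p = 2.33e-11). Ifit1 (4.10 ± 0.13) and Ifit2 (3.57 ± 0.12), which bind foreign RNA, the deconjugase Usp18 (3.73 ± 0.08) and Rsad2 (3.36 ± 0.13), the antiviral enzyme viperin, were similarly high. Macrophage and interferon genes were both high in TUM, OFF3 and OFF6, and which cells made the interferon genes was not tested.

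**Figure D5:**
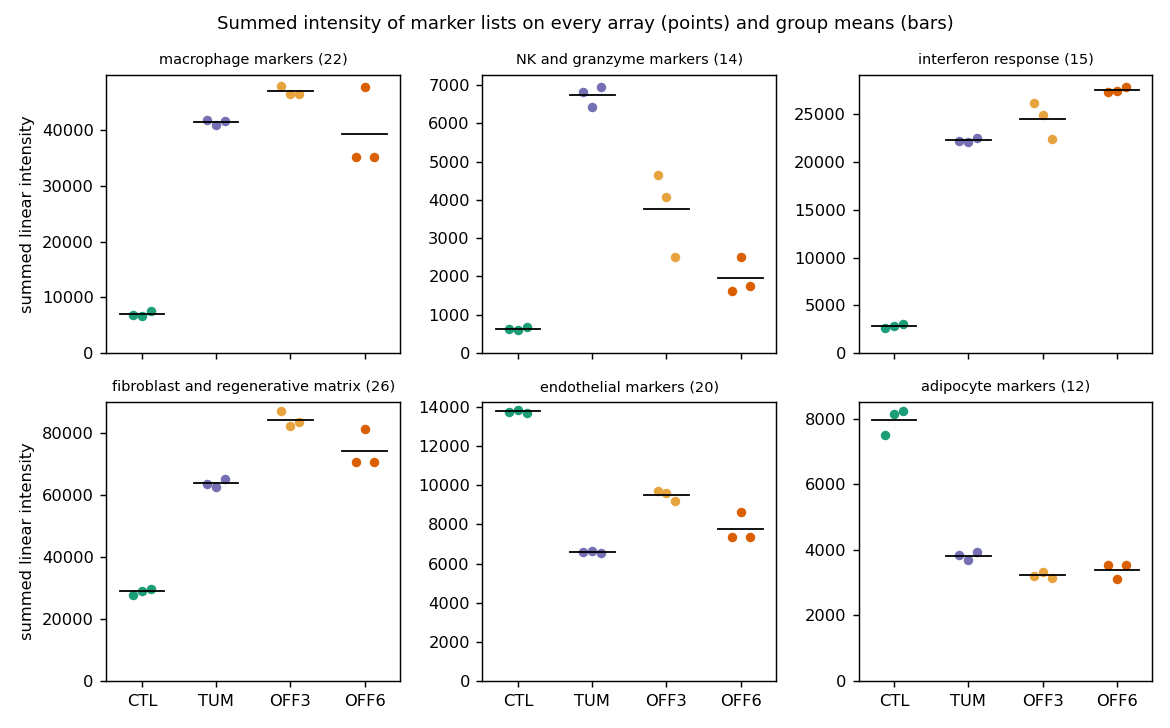
Summed linear intensity of 6 marker lists (vertical axis, from 0) on each array of CTL, TUM, OFF3 and OFF6, with the number of genes per list in brackets. Points are arrays and bars the means of 3. The macrophage, NK, interferon and matrix sums of every OFF6 array lie above CTL, the endothelial and adipocyte sums below it, and OFF6 replicate 2, the middle point, is highest of its group for macrophages, NK, matrix and endothelium and lowest for adipocytes.

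Promoter stretches of 2 members show the letters through which such genes are known to respond. Capitals mark GAAANNGAAA on either strand, the core of the interferon-stimulated response element, again from RefSeq (GRCm38.p6) and 5′ to 3′ on the gene's strand. Ifit1, chr19:34640785-34640813 on the + strand, is given from 104 to 76 bases before the start. Rsad2, chr12:26456453-26456702 on the - strand, is given from 250 bases to 1 base before it, with its match beginning 120 bases before.
Ifit1: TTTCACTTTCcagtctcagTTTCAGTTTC
Rsad2: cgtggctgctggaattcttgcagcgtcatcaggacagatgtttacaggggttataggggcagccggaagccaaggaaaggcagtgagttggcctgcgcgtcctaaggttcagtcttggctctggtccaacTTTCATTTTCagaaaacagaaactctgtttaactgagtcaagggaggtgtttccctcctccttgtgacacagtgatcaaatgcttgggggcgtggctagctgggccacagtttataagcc
Of the 12 measured interferon genes with a RefSeq promoter, 6 held this motif within 250 bases before a start, against 3.46% of all genes with a promoter.

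Endothelial and adipocyte markers were mostly lower in the tumours, and other tissue that muscle carries with it went both ways. Of 20 endothelial markers 18 were lower (median -0.77). Aqp7 (-3.86 ± 0.13) and Fabp4 (-2.01 ± 0.22), which adipocytes also make, Gpihbp1 (-1.83 ± 0.13), which holds Lpl on capillaries, and the receptor Flt1 (-1.79 ± 0.06) were lowest. The general markers Pecam1 (-0.28 ± 0.08) and Cdh5 (-0.77 ± 0.07) differed less, and Emcn (0.02 ± 0.10) was within 1.5-fold. The summed endothelial intensity ran from 7336 to 8650 in OFF6 and from 13717 to 13871 in CTL. Of 15 pericyte and smooth muscle markers 8 were lower, such as Abcc9 (-1.66 ± 0.11), Rgs5 (-1.47 ± 0.13), Myh11 (-1.32 ± 0.08) and Kcnj8 (-1.21 ± 0.10), and 3 higher (5 without OFF6 replicate 2), such as Tagln (1.09 ± 0.14). Of 12 adipocyte markers 10 were lower (median -1.29), including Retn (-4.18 ± 0.12), Plin4 (-3.68 ± 0.14), Cidec (-2.37 ± 0.12) and Adipoq (-2.28 ± 0.27), with sums of 3098 to 3531 against 7490 to 8243. Ucp1, of brown fat, did not pass (-0.02 ± 0.07). Schwann cell markers were lower in 5 of 10, among them Cdh19 (-0.76 ± 0.18) and myelin Mbp (-0.75 ± 0.21), and higher in 3, among them Egr2 (1.45 ± 0.11) and Cnp (0.98 ± 0.08). Mag (-0.18 ± 0.08) was within 1.5-fold, and 3 of the list were lower without CTL replicate 1 or OFF6 replicate 3. With quantile normalization 3 Schwann cell markers were higher and 4 lower. Among tendon and cartilage genes, with 5 of 13 higher and 6 lower (3 without CTL replicate 1), the tendon factor Scx (2.45 ± 0.17) and the cartilage factor Sox9 (1.64 ± 0.14) were higher, as was Thbs4 (1.24 ± 0.08). The cartilage protein Chad was lower (-1.08 ± 0.42), a call that held only with all arrays or without OFF6 replicate 1 or 3 and fell to -0.44 without OFF6 replicate 2. Acan (-0.02 ± 0.11) was within 1.5-fold, but dim in both groups. Of 13 epithelial markers 4 were higher and 6 lower (3 without OFF6 replicate 3), with the simple keratins Krt8 (2.04 ± 0.16) and Krt18 (0.69 ± 0.18), Sprr1a (0.66 ± 0.20) and E-cadherin Cdh1 (0.64 ± 0.10) higher and Krt14 (-0.11 ± 0.06) within 1.5-fold. Of these Krt18 (-0.04), Sprr1a (-0.07) and Cdh1 (-0.10) were not higher with housekeeping centring. Of 3 erythroid genes Alas2 (-1.36 ± 0.13) and Slc4a1 (-0.41 ± 0.08) were lower and Epb42 (-0.19 ± 0.11) did not pass.

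Clock genes differed together. Of 14, 13 were lower (median -0.81), both those that peak with Bmal1, listed here as Arntl (-1.02 ± 0.08), and those that peak opposite to it, Nr1d1 (-1.07 ± 0.06) and Dbp (-1.14 ± 0.08). Hlf (-1.82 ± 0.09) and Cry2 (-1.17 ± 0.08) were lower too, and Clock (0.19 ± 0.10) did not pass, except without OFF6 replicate 2 (0.32). The hour of collection is not given. Of 18 immediate early and handling genes 11 were higher and 4 lower, turning to 6 and 10 with housekeeping centring, with Btg1 (2.03 ± 0.07), the metallothionein Mt2 (1.74 ± 0.07) and Egr1 (1.56 ± 0.11) higher, Dusp1 (-1.60 ± 0.08) lower and Jun (-0.03 ± 0.07) within 1.5-fold.

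Ranked here were only called genes whose OFF6 and CTL arrays did not overlap. Predicted or clone-named genes, small RNAs and immunoglobulin or T-cell receptor segments were left out. Among the rest, the 10 largest excesses in OFF6 were Ccl3 (5.27 ± 0.08), C1qtnf3 (5.13 ± 0.07), Brinp3 (5.09 ± 0.14), Mcpt2 (5.03 ± 0.09), Myh3, Glipr1 (4.87 ± 0.16), Cd72 (4.85 ± 0.09), R3hdml (4.83 ± 0.23), Ms4a4c (4.82 ± 0.14) and Fcgr4 (4.75 ± 0.15). Ccl3 is a macrophage chemokine, Mcpt2 a mast cell protease, and Cd72 and Fcgr4 are leukocyte receptors. Ccl3 read 11.07, 11.14 and 11.15 in OFF6 and 5.87, 5.90 and 5.76 in CTL. The 10 largest deficits by the same rule were Ostn (-5.83 ± 0.07), Scn4b, Mstn, Plcd4 (-5.31 ± 0.18), Mlf1 (-5.28 ± 0.21), Tlcd4 (-4.76 ± 0.13), Osbpl6 (-4.73 ± 0.11), Timp4 (-4.72 ± 0.09), Smco1 (-4.70 ± 0.13) and Adhfe1 (-4.66 ± 0.07). Ostn, the muscle-secreted peptide osteocrin, read 4.58, 4.70 and 4.68 against 10.42, 10.56 and 10.47. Ostn, Mstn and Timp4 were dim on all 3 OFF6 arrays, as Mcpt2 and Fcgr4 were on all 3 CTL arrays, so their places in this order are uncertain. For each of these 10 the OFF6 mean lay within 0.22 of the TUM mean.

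The 4 groups side by side show where day 6 stood for the genes that carry the contrast. Myh3 read 9.68, 9.66 and 9.69 in TUM and 11.25, 11.18 and 11.33 in OFF3, both below every OFF6 array and above every CTL array. Myh8 read 8.17, 7.97 and 8.06 in TUM, close to CTL, and 10.54, 10.39 and 10.64 in OFF3. The developmental myosins were thus highest at day 6, the time point furthest from induction. Chrng, the fetal receptor subunit, read 9.21, 9.25 and 9.24 in TUM and 10.08, 10.14 and 10.08 in OFF3, below every OFF6 array. Acta1 read 12.76, 12.73 and 12.66 in TUM and 13.13, 13.09 and 13.21 in OFF3. Its mean difference to CTL was -0.72 in TUM, -0.30 in OFF3 and -0.24 in OFF6.

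Several adult genes read closer to CTL at day 3 than at day 6. Scn4b read 8.01, 8.07 and 8.01 in OFF3, above every TUM and OFF6 array and below every CTL array. Sox6 read 7.02, 6.93 and 6.71 in TUM and 7.49, 7.49 and 8.05 in OFF3, where its mean lay above that of OFF6. Creatine kinase Ckm read 11.62, 11.62 and 11.53 in TUM and 12.49, 12.46 and 12.85 in OFF3, with every OFF3 array above every OFF6 array. Within OFF6, replicate 2 was the highest array for Scn4b, Sox6, Mstn and Slc2a4 and the lowest for Myh3, Myh8, Chrng and Mymk. Clcn1, the chloride channel, read 6.26, 6.03 and 6.20 in TUM and 6.82, 6.85 and 7.46 in OFF3, and Ppargc1a 6.42, 6.40 and 6.37 and 7.21, 7.28 and 7.92. For Clcn1, Sox6 and Ppargc1a day 6 remained at least 3.50 log2 units from CTL. How much adult host muscle each sample held was not tested. All 3 tumour groups are set against the same CTL arrays, so no test between those comparisons was made.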

How the data were processed

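RNA of 12 samples, 3 per group, was measured on 1-colour mouse gene arrays. The deposited values were linear intensities per probe set, made by the authors with RMA (background correction, quantile normalization, summarization) per the submitters' processing notes; its version is not given in the sources used here. RMA equalizes arrays, so a change shared by most genes would be removed. The log2 of the deposited intensities was taken without an offset. Of 34760 probe sets 21640 had 1 gene symbol, 1321 several and 11799 none. Of the 21640, 21553 had a gene identifier found in RefSeq. The 954 genes with more than 1 probe set were represented by the brightest on average, for 19937 genes in all. Array medians ran from 86.74 to 93.05 in linear intensity, and no column was left out. An array gives no read depth, and precision is set by how many arrays each group has.

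Linear models were fitted with limma 3.58.1 in R 4.3.3 to all 12 arrays with group means, whose shared spread gave a median standard error of 0.086 and 12.2 degrees of freedom. The contrast was OFF6 minus CTL. Benjamini-Hochberg adjustment ran over all 19937 genes, and genes were called at an adjusted p under 0.05. All adjusted p-values in the text are limma's. "At least 2-fold" means called with a log2 difference of 1 or more either way, and "within 1.5-fold" that the 95% interval lay inside that range. Fold changes are ratios of geometric means of intensity. The fit was tested on simulated data. Alternatives covered the probe set rule, a filter on level, 5 other scalings or offsets, variance model, weights, replicate block, thresholds and left-out arrays.

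The members and lists were chosen with earlier results of these data known. Named were a fixed set of 21 muscle, YAP and proliferation genes, the 10 largest called differences each way, and per list the 4 largest called members, the largest against the majority and the one closest to 0. The 10 each way were taken among genes whose OFF6 and CTL arrays did not overlap. Predicted or clone-named genes, small RNAs and immunoglobulin or T-cell receptor segments were left out of them. Other genes, among them partners in isoform pairs, were added after their values were seen. Promoters came from the RefSeq table (GRCm38.p6), where they end before the transcript start; miRNAs were not used here. Figures were drawn with matplotlib 3.10.9.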

Additional observations from a re-analysis of the deposited data

How the results depend on the processing

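With array weights 13834 genes were called, with a trended and robust variance 13115 and with only the 6 arrays compared 11690, against 12790. With 1 array left out, genes called ranged from 11471 to 12300 (5361 to 5627 higher, 6098 to 6906 lower), genes at least 2-fold apart from 3340 to 3498 (2051 to 2186 higher, 1264 to 1328 lower) and genes within 1.5-fold from 10231 to 11267. Lists with more members higher than lower numbered 25 of 47, and 25 to 26 with 1 array left out, and called genes among the 332 named with values numbered 284, and 279 to 290. A replicate block gave 12279 called genes and 3420 at least 2-fold apart. Same-numbered arrays had correlated deviations of only 0.187, 0.091 and 0.015, so the numbers were not taken to pair the arrays, although each OFF6 array correlated best with its own number, a hint from the data and not from the design. Blocking removed 2 of the 284 calls.

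Centring arrays on 7 housekeeping genes left 2209 genes higher and 16046 lower, 6836 at least 2-fold apart (913 higher, 5923 lower), 2810 within 1.5-fold and 13 lists with more members higher than lower. Genes called lower numbered 12001 with median centring and 11991 with 75th percentile scaling. Only genes above the median level gave 7923 calls and 3562 within 1.5-fold, with fewer genes tested. Of these calls 4683 were higher and 3240 lower, so the balance turned, with 59.1% of calls higher against 43.8% over all genes. Testing against a 2-fold minimum left 861 genes lower. With housekeeping centring 29 named genes turned sign. Of these 9 had been called higher: Ccn1 -0.26, Cdh1 -0.10, Eya3 -0.22, Krt18 -0.04, Myom3 -0.11, Nrf1 -0.54, Slc2a1 -0.41, Sprr1a -0.07 and Tnnt1 -0.06. The other values were Atp1b4 -0.69, Atp2a2 -0.56, Cd8b1 -0.73, Clock -0.54, Dag1 -0.65, Emcn -0.71, Fjx1 -0.73, Gadd45g -0.70, Gins1 -0.70, Itga3 -0.72, Itgb3 -0.59, Klrb1c -0.65, Lmod3 -0.65, Ndc80 -0.58, Rapsn -0.43, Six5 -0.70, Tnni3 -0.73, Vgll4 -0.70, Xist -0.51 and Yap1 -0.69. With median centring Cd8b1 turned to -0.18 and Tnni3 to -0.17, with 75th percentile scaling Cd8b1 to -0.20, Nrf1 to -0.00 and Tnni3 to -0.19, and with quantile normalization Nrf1 to -0.06. Tpm3 turned to -0.08 with the mean of its probe sets and to -1.34 with its most variable one. Apart from the scaling itself, the filters and the choice of probe set, the causes were not tested.

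Brightness limits these results at both ends. The brightest probe set of an array read from 12539 to 14584 in linear intensity. Genes such as Acta1 and Actc1 lay near that top, and how far their differences were narrowed there was not tested. Of the 4985 dimmest genes 2.15% were called higher, against 47.8% of the 4984 brightest, while 33.4% and 33% were called lower. Only 0.461% of the dimmest were called at least 2-fold lower, against 9.75% of the brightest, so most lower calls of dim genes were small.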
